A study of Mus musculus with 4 samples.

Results

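Axon guidance genes encode the secreted and membrane-bound cues, and the receptors for them, that steer growing nerve fibres and that many other tissues use for cell positioning and branching. The genes examined here were chosen by gene symbol alone: semaphorins, slits, netrins and ephrins as ligands, and plexins, neuropilins, roundabouts, Eph receptors and the netrin receptors Dcc, Neo1 and Unc5 as receptors. They numbered 69 of the 18820 genes with a probe set that names a single gene, 35 ligands and 34 receptors. The mouse RefSeq table holds 70 genes of these families, and the one with no such probe set, Ephb2, was not analysed here. Unc5cl, which shares only the start of its symbol with the Unc5 receptors, was left out.

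RNA came from metanephric kidneys that were taken from mouse embryos at about day 14 of gestation and grown as whole organs for about 10 days. All mice were B6.129P2-Lgr5tm1(cre/ERT2)Cle/J, in which EGFP and a tamoxifen-dependent Cre recombinase are expressed from Lgr5, a gene for a receptor of R-spondins that strengthens Wnt signalling. After enzymatic dissociation the cells were sorted by flow cytometry into a GFP-high and a GFP-negative fraction, with 2 arrays of each, so both fractions carry the knock-in allele. Sample titles give each array a kidney letter, and the arrays are called high A, high B, negative B and negative D below. Nothing in the labels ties a letter to 1 animal or 1 litter, and the p-values therefore measure only the spread between these 4 arrays, possibly a technical one.

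Slits bind roundabout receptors, and in the kidney Slit2 and Robo2 are known for limiting where the ureteric bud grows out towards its inducer Gdnf. Netrins act through Dcc, neogenin (Neo1) and the Unc5 family, semaphorins through plexins with neuropilins as partners of the secreted class, and ephrins are membrane-anchored ligands of Eph receptor tyrosine kinases that sort cells at tissue boundaries. Semaphorins of class 3 are also known as modulators of podocytes, endothelium and ureteric branching.

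Of the 69 guidance genes, 16 were higher in GFP-high than in GFP-negative cells, 18 were lower and 35 did not pass (limma adjusted p under 0.05 over all genes). That is 49.3% of them, while 19.2% of all genes tested passed, 8.08% as higher and 11.2% as lower. The 95th percentile of 979 olfactory receptor genes, 4.23, is taken here as a mark of background. Of all genes with a mean above it 26.2% passed, and of the 60 guidance genes with a mean above it 33 passed (55%). Of the guidance genes 8 were at or under the mark in both fractions, and 7 of the lower ones (Sema3a, Sema3e, Plxnc1, Epha3, Robo4, Dcc and Unc5a) were at or under it in GFP-high cells. Ligands (7 higher, 9 lower, 19 not passing) and receptors (9 higher, 9 lower, 16 not passing) were both split. The median log2 difference, GFP-high minus GFP-negative, was 0.04 over the 69 genes and 0.051 over all genes. The 2 fractions did not overlap for 55 of the 69 genes, 28 with higher and 27 with lower GFP-high values, and for 57.3% of all genes, 33.2% higher and 24% lower. With each array centred on its median, 52.9% of all called genes were higher, compared with 42% as deposited, and the guidance genes numbered 20 higher and 16 lower.

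**Figure D1:**
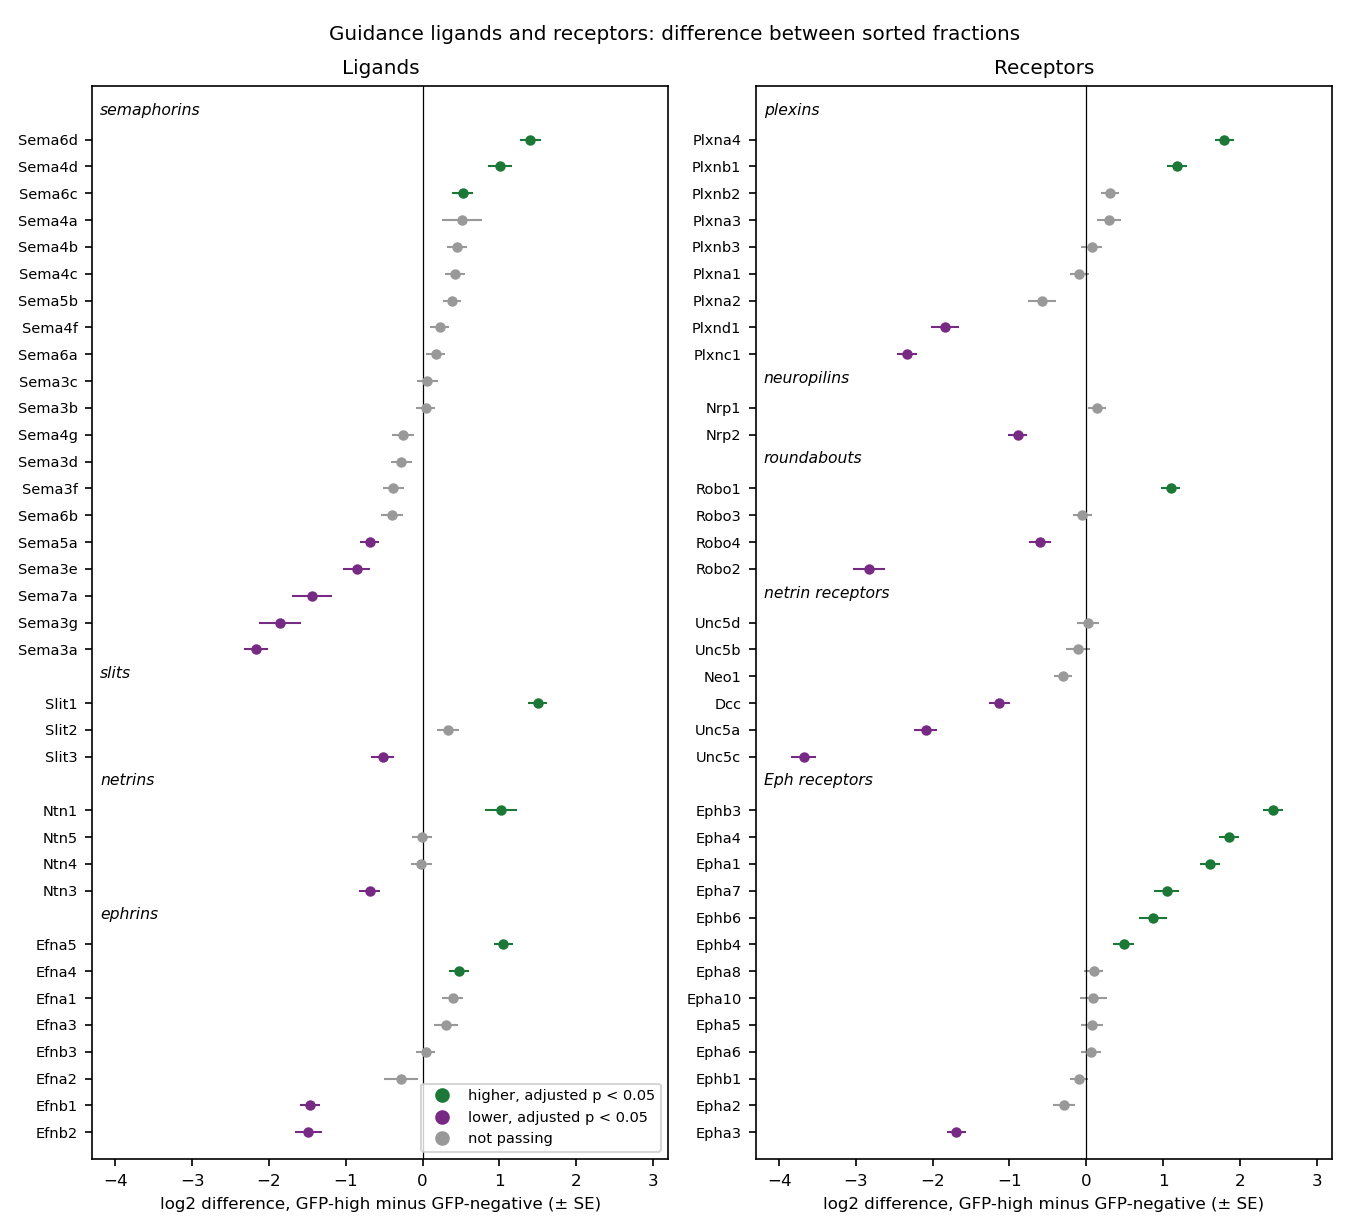
Log2 difference (GFP-high minus GFP-negative, 2 arrays each) of the 35 ligand genes (left) and 34 receptor genes (right) by family, with bars for the moderated standard error. Green points passed as higher (16 genes), purple points passed as lower (18 genes) and grey points did not pass; the extremes are Ephb3 at 2.43 and Unc5c at -3.68.

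The largest increase was that of the receptor gene Ephb3 (5.38-fold) and the largest decrease that of the netrin receptor gene Unc5c (12.8-fold). Differences of at least 2-fold were found for 12 higher and 12 lower genes. Within kidney B, which gave an array of each fraction, the smallest difference in size among the 34 genes that passed was that of Slit3 (-0.31). The fractions did not overlap for any of the 34, so the direction within kidney B was fixed in advance and is no separate support. With any 1 of the 4 arrays left out, which leaves 1 residual degree of freedom, 9 of the higher genes (Sema6d, Plxna4, Plxnb1, Efna5, Epha1, Epha4, Ephb3, Slit1 and Robo1) and 8 of the lower ones (Sema3a, Plxnc1, Plxnd1, Efnb1, Epha3, Robo2, Unc5a and Unc5c) passed every time. The median SD between the 2 arrays of a fraction was 0.1 for GFP-high and 0.11 for GFP-negative cells.

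**Figure D2:**
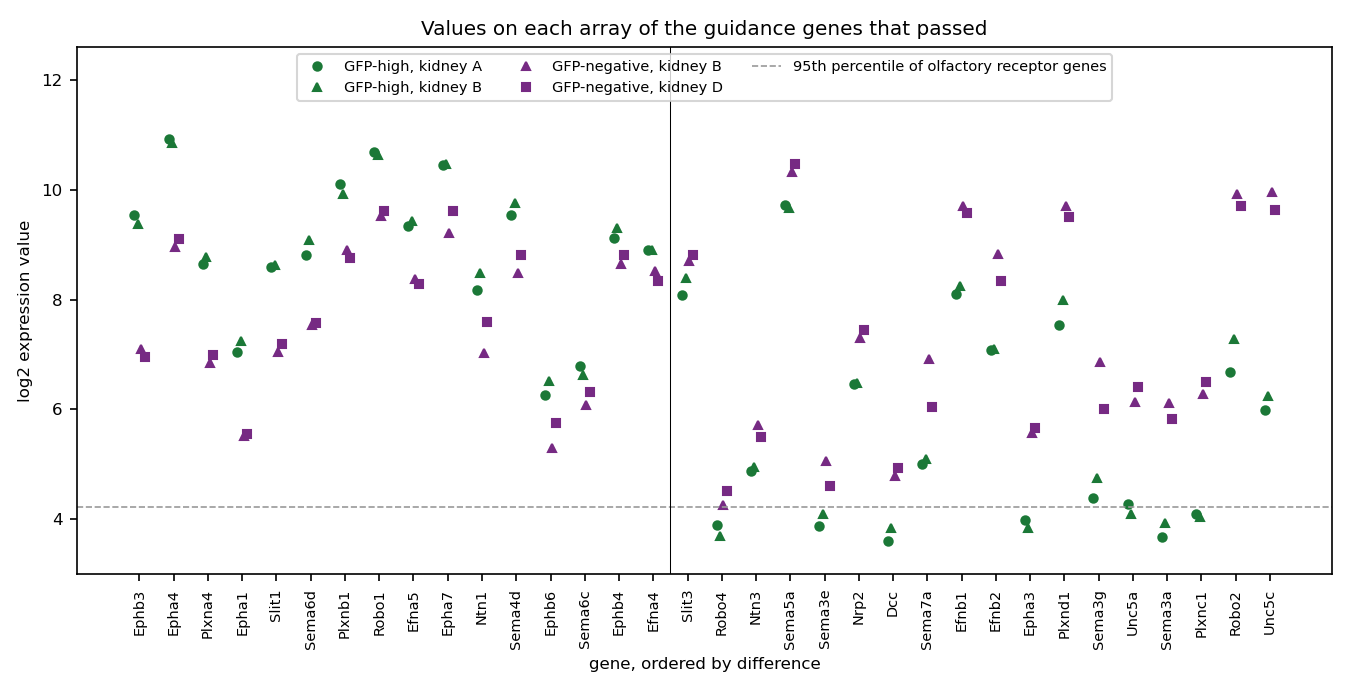
Log2 expression value on each array of the 34 guidance genes that passed, ordered by difference, with the 16 higher genes left of the vertical line and the 18 lower ones right of it. Green symbols are the GFP-high arrays and purple symbols the GFP-negative arrays. The dashed line at 4.23 is the 95th percentile of olfactory receptor genes. Both GFP-high values of Sema3a, Sema3e, Plxnc1, Epha3, Robo4 and Dcc lie below it, and those of Unc5a lie on either side.

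The start regions of the guidance genes furthest apart between fractions are shown to place these genes in the genome. For each direction they are the 2 genes with the largest difference among the 47 with a single start in the RefSeq promoter table (build GRCm38.p6), which holds 59 of the 69 genes. Each line gives the 250 bases before the annotated start, 5′ to 3′ on the gene's strand, with CpG dinucleotides in capitals. Ephb3 and Epha4 were higher in GFP-high cells, and Unc5c and Plxnc1 lower.
Ephb3, chr16:21204545-21204794, plus strand: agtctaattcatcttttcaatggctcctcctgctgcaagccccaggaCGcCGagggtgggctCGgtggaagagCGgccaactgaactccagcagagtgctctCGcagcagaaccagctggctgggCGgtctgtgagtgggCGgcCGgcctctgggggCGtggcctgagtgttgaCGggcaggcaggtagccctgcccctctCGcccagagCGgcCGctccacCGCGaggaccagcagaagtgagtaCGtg
Epha4, chr1:77515089-77515338, minus strand: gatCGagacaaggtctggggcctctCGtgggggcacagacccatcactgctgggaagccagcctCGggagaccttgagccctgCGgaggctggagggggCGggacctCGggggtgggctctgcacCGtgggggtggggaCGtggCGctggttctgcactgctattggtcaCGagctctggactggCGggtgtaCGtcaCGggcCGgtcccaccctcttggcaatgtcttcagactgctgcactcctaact
Unc5c, chr3:141465314-141465563, plus strand: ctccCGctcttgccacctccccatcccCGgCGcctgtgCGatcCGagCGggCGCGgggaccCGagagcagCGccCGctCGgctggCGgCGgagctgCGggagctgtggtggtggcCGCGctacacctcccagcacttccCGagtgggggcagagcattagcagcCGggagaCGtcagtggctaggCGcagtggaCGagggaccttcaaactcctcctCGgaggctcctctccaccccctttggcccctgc
Plxnc1, chr10:94944846-94945095, minus strand: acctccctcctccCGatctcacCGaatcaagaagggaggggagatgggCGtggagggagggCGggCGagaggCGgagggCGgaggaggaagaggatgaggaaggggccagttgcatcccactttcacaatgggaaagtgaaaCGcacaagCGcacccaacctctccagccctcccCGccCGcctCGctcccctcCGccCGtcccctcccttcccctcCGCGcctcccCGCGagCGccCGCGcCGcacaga

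The 4 windows hold 16, 14, 23 and 22 CpG dinucleotides respectively, and the median was 6 over all 32851 promoter windows and 15 over the 75 windows of guidance genes. Windows of the higher genes had a median of 11.5, those of the lower genes 16 and those of genes that did not pass 17.5. On both strands, the TCF/LEF motif CTTTGAT was in 0 of 18 windows of higher genes and in 1 of 19 of lower genes (Nrp2), and in 0 of 38 of genes that did not pass, while 3.21% of all windows hold it. The AP-2 motif GCCNNNGGC was in 1 of the 18 windows (Ephb6) and in 4 of the 19 (Ntn3, Plxnd1, Sema7a and Unc5a), compared with 11 of the 38 windows of genes that did not pass and 13.7% of all windows. The Iroquois motif ACANNTGT, in 6.31% of all windows, was in 0 windows of either set and in 2 of the 38 (Sema3d and Sema4f). The variant CTTTGAA, which cannot lie on the same bases as CTTTGAT, was in 1 window of the lower genes (Sema3e), in 1 of the 38 (Epha2) and in 4.46% of all windows.

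Facts of the arrays as a whole bear on every gene below. Lgr5 itself, the gene that drives the reporter, stood at 10.43 and 10.34 on high A and B and at 6.39 and 6.31 on negative B and D. All 7 measured markers of the thick ascending limb were higher in GFP-high cells (summed antilog level 5205 to 5841 against 226 to 250). Of 7 measured markers of the ureteric bud and collecting duct 4 were higher and 0 lower (885 to 1250 against 332 to 371). The largest difference was that of Wnt7b, at 8.35 and 8.59 against 4.90 and 4.95. The other higher genes of this list were each higher on high A than on high B. They were Aqp2 (6.26 and 5.70 against 4.52 and 4.69), Gata3 (8.78 and 7.80 against 7.07 and 6.94) and Wnt11 (6.63 and 5.94 against 5.19 and 5.27). Ret (log2 difference -0.32), Wnt9b (0.05) and Calb1 (1.21) did not pass. The part of either list in the higher guidance genes was not tested. All 8 of the cap mesenchyme and all 9 of the stroma were lower (500 to 701 against 7513 to 7560, and 963 to 1007 against 8166 to 8737), as were all 7 of the proximal tubule and all 4 measured ones of the podocyte. Of 9 endothelial markers 7 were lower (156 to 160 against 524 to 731). Of 10 listed markers of neurons and neural crest glia, the cells in which guidance genes are best known, 6 were measured. Of these 2 were lower and 0 higher (80 to 89 against 136 to 137). The lower ones were Elavl4 (log2 difference -1.88, GFP-high mean 3.94, within background) and Prph (-0.58, within background in both fractions). Dbh (-0.30), Th (-0.28), Stmn2 (-0.21) and Sox10 (0.14) did not pass, with Sox10 at 4.58 and 4.15 against 4.41 and 4.05. In sorted cell mixtures of this kind, fewer cells of a type and less RNA per cell cannot be told apart.

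**Figure D3:**
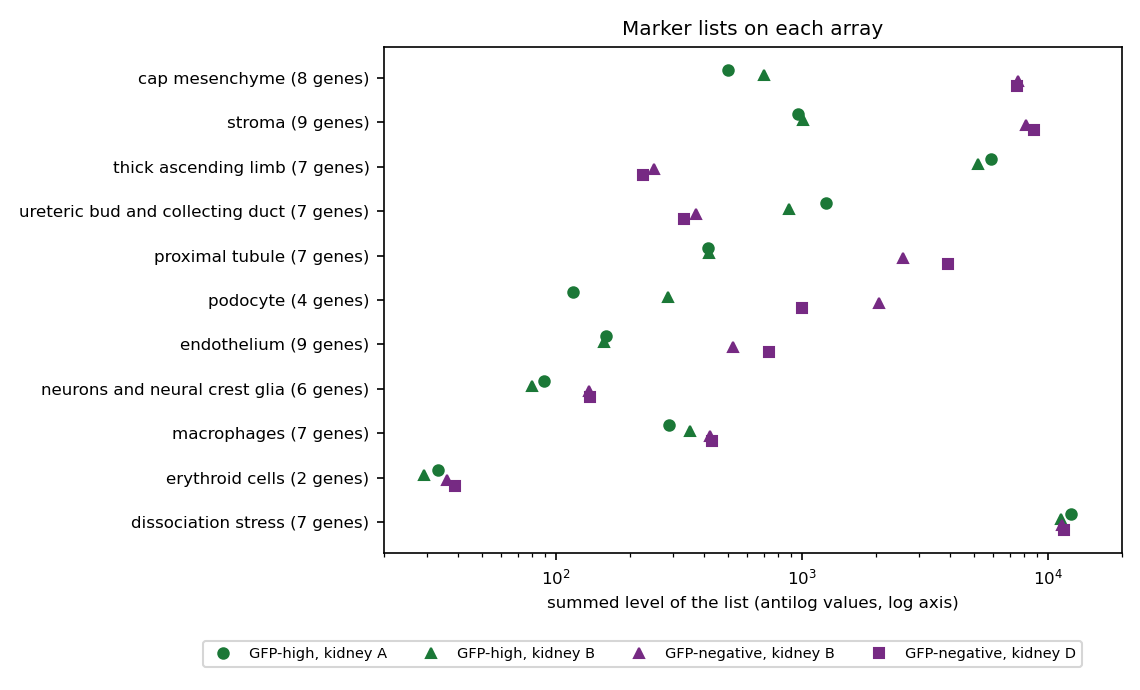
Summed level of each marker list (antilog of the log2 values, arbitrary units on a log axis) on each of the 4 arrays. GFP-high arrays are green and GFP-negative arrays purple; the thick ascending limb list is higher on both GFP-high arrays (5205 and 5841), while the cap mesenchyme list is higher on both GFP-negative arrays (7513 and 7560) and the dissociation stress list is within 11274 to 12449 on all.

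Slit and roundabout genes went in opposite directions within each family. Slit1, which encodes a secreted ligand, had log2 values of 8.60 and 8.63 on high A and high B and of 7.05 and 7.19 on negative B and negative D, an order kept for all values below. Both GFP-high arrays lay above both others, a 2.83-fold difference (log2 difference 1.5, SE 0.124, limma adjusted p = 0.0001879). Robo1, a transmembrane slit receptor, was 2.14-fold higher, at 10.69 and 10.63 against 9.53 and 9.61 (log2 difference 1.10, limma adjusted p = 0.000736). Robo2, the receptor known for restricting ureteric bud outgrowth, was the other way round at 6.68 and 7.28 against 9.92 and 9.71, which is 7.13-fold lower (log2 difference -2.83, SE 0.204, limma adjusted p = 0.000102). The GFP-high spread of Robo2, an SD of 0.42, was the widest of the 69 genes in that fraction, and the groups still did not overlap.

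Slit3 was lower at 8.08 and 8.40 against 8.71 and 8.82 (1.44-fold, limma adjusted p = 0.04875). Slit2, at 9.64 and 9.71 against 9.19 and 9.50, did not pass (log2 difference 0.33, limma adjusted p = 0.1805). Robo4, a roundabout of endothelial cells, was 1.51-fold lower with values of 3.89 and 3.70, within background, against 4.27 and 4.51. Slit3 and Robo4 passed in none of the 4 fits with 1 array left out (limma adjusted p 0.0815 to 0.292 and 0.0944 to 0.207). With arrays centred on their medians Slit3 had 0.06662 and Robo4 0.05668 (limma adjusted p). Robo3 was within background in both fractions (log2 difference -0.05), with its sign turned under median centring and without high B. The endothelial list moved with Robo4, with Kdr at 4.15 and 3.94 against 5.44 and 6.29, and its part in the result was not tested.

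Among netrins and their receptors, one ligand gene was higher and 3 receptor genes were lower in GFP-high cells. Ntn1, the founding secreted netrin, stood at 8.17 and 8.49 against 7.03 and 7.59. The fractions did not overlap, with an SD of 0.4 between the GFP-negative arrays (2.03-fold, log2 difference 1.02, SE 0.208, limma adjusted p = 0.01303). Ntn1 passed without negative D (limma adjusted p = 0.03751) but not without negative B (0.1319), high A (0.1395) or high B (0.2006).

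Unc5c, an Unc5 receptor that mediates repulsion from netrin, had values of 5.99 and 6.25 in GFP-high against 9.96 and 9.63 in GFP-negative cells (log2 difference -3.68, SE 0.163, limma adjusted p = 1.779e-05). No other guidance gene differed as much. Unc5a was 4.25-fold lower, at 4.28 and 4.10 against 6.14 and 6.41, so that its GFP-high mean of 4.19 was within background. Dcc, the receptor for attraction to netrin, was 2.19-fold lower at 3.61 and 3.85, also within background, against 4.79 and 4.94 (limma adjusted p = 0.001267, and 0.05307 without high A). The 2 remaining Unc5 receptor genes did not pass, with log2 differences of -0.11 for Unc5b and 0.02 for Unc5d. The sign of Unc5b turned without high B or negative B, and that of Unc5d without negative B and after cyclic loess. Neo1, at 10.01 and 10.09 against 10.36 and 10.34, did not pass either (log2 difference -0.30, limma adjusted p = 0.148).

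Ntn3 was lower at 4.88 and 4.95 against 5.71 and 5.50 (limma adjusted p = 0.009986), with 0.0556 to 0.13 when 1 array was left out. A second probe set of Ntn3 differed by 0.02 (limma adjusted p = 0.9332), and with the mean of both the gene had 0.1027. Ntn4 (mean 5.55 against 5.57) and Ntn5 (log2 difference -0.01, within background in both fractions) did not pass, and the sign of Ntn4 turned under quantile normalization, under median centring and without negative B. That of Ntn5 turned under median centring (0.09) and with 1 array left out (-0.11 to 0.10).

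Of the 20 semaphorin genes 3 were higher, 5 lower and 12 not passing. All genes that passed as higher belong to the transmembrane classes 4 and 6. Sema6d, a class 6 semaphorin, was 2.64-fold higher at 8.82 and 9.08 against 7.53 and 7.57 (log2 difference 1.40, SE 0.137, limma adjusted p = 0.0004059). Sema4d, the ligand of Plxnb1, was 2.01-fold higher at 9.54 and 9.76 against 8.49 and 8.81 (limma adjusted p = 0.003864). It passed without negative D (limma adjusted p = 0.03407) and missed the threshold without negative B (0.07305), high A (0.07903) or high B (0.1026). Sema6c was higher at 6.80 and 6.62 against 6.08 and 6.31 (1.43-fold, limma adjusted p = 0.04117), with 0.115 to 0.269 when 1 array was left out, 0.08003 after cyclic loess and 0.06724 with an intensity trend in the variance.

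Of the 7 genes of the secreted class 3, 3 were lower, 4 did not pass and 0 were higher. Sema3a, a repellent that acts through neuropilin 1 and A plexins, had values of 3.68 and 3.93 in GFP-high cells and of 6.12 and 5.83 in GFP-negative cells (4.51-fold, log2 difference -2.17, SE 0.155, limma adjusted p = 9.825e-05). Its GFP-high values were within background. Sema3g was 3.64-fold lower at 4.39 and 4.75 against 6.86 and 6.01, and Sema3e 1.81-fold lower at 3.88 and 4.10, within background, against 5.07 and 4.61. Sema3f (9.38 and 9.47 against 9.70 and 9.92), Sema3b (log2 difference 0.04, and -0.02 after cyclic loess), Sema3c (0.06, turning to -0.06 without negative B) and Sema3d (-0.28) did not pass.

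Sema7a, the GPI-anchored semaphorin, was 2.72-fold lower at 5.0 and 5.09 against 6.92 and 6.05, and the SD of 0.62 between its GFP-negative arrays was the largest of all 69 genes. On the GFP-negative arrays, Sema3g, Sema7a and Sema3e were each higher in kidney B than in kidney D. Among the other lower guidance genes, so were Sema3a, Plxnd1, Efnb1, Efnb2, Robo2, Ntn3 and Unc5c. Sema5a, Plxnc1, Nrp2, Epha3, Slit3, Robo4, Dcc and Unc5a were higher in kidney D. The podocyte list had a summed level of 2051 in kidney B and 1004 in kidney D against 117 and 285 in GFP-high cells. Of its genes, Nphs1 stood at 4.29 and 4.92 against 7.09 and 5.80. The part of podocyte RNA in these results was not tested. In the full fit the limma adjusted p was 0.00289 for Sema3g, 0.007532 for Sema7a and 0.01434 for Sema3e. Sema3g and Sema7a passed without negative B or negative D, but not without high A (limma adjusted p 0.1442 and 0.1938) or high B (0.09778 and 0.1598). Sema3e passed without negative D (0.03955), not without high A (0.2116), high B (0.133) or negative B (0.1349). Sema5a, a transmembrane class 5 semaphorin, was lower at 9.73 and 9.67 against 10.32 and 10.47 (1.61-fold, limma adjusted p = 0.007743, and 0.0615 to 0.096 with 1 array left out). No further gene of classes 4 to 6 passed. Sema4a stood at 7.35 and 7.01 against 6.27 and 7.08, so its fractions overlapped. The log2 differences were 0.45 for Sema4b, 0.42 for Sema4c, 0.22 for Sema4f, -0.26 for Sema4g, 0.38 for Sema5b, 0.17 for Sema6a and -0.40 for Sema6b. Among the 69 genes Sema4b had the smallest adjusted p above the threshold (limma, 0.05573).

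Of the 9 plexin genes, which encode the semaphorin receptors, 2 were higher, 2 lower and 5 not passing. Plxna4 was 3.47-fold higher at 8.65 and 8.78 against 6.85 and 6.99 (log2 difference 1.80, SE 0.128, limma adjusted p = 9.832e-05). Plxnb1 was 2.26-fold higher at 10.11 and 9.92 against 8.91 and 8.76 (log2 difference 1.18, SE 0.134, limma adjusted p = 0.0008686). A second probe set of Plxnb1, with means of 4.40 and 4.26 near background, differed by 0.14 and did not pass (limma adjusted p = 0.5267). In the other direction, Plxnc1, the receptor of Sema7a, was 5.01-fold lower at 4.10 and 4.04, within background, against 6.28 and 6.5 (limma adjusted p = 4.012e-05).

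Plxnd1, the receptor of Sema3e and a gene known from endothelium, was 3.59-fold lower at 7.53 and 8.0 against 9.71 and 9.50 (log2 difference -1.84, SE 0.179, limma adjusted p = 0.0003969). The endothelial list was lower too, as given above, with sums of 524 and 731 on negative B and negative D. Its part in the Plxnd1 difference was not tested. Of the remaining A and B plexins none passed, with log2 differences of -0.58 for Plxna2 (limma adjusted p = 0.06702), -0.09 for Plxna1, 0.30 for Plxna3, 0.31 for Plxnb2 and 0.07 for Plxnb3. Plxna1 turned to 0.01 with arrays centred on their medians. Of the neuropilins, coreceptors of class 3 semaphorins, Nrp2 was 1.85-fold lower at 6.47 and 6.49 against 7.30 and 7.44 (limma adjusted p = 0.00224, with 0.06441 when high A was left out and 0.0576 when high B was). Nrp1 stood at 9.69 and 9.80 against 9.63 and 9.58 and did not pass (log2 difference 0.14, limma adjusted p = 0.5147).

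Of the 13 Eph receptor genes 6 were higher in GFP-high cells, 1 was lower and 6 did not pass. Of all genes 8.08% were higher and 11.2% lower. Ephb3, a receptor of B ephrins, had values of 9.54 and 9.38 against 7.11 and 6.96 (log2 difference 2.43, SE 0.132, limma adjusted p = 3.437e-05). Epha4, which binds ephrins of both classes, was 3.62-fold higher at 10.93 and 10.85 against 8.96 and 9.10 (log2 difference 1.86, SE 0.126, limma adjusted p = 8.067e-05). Epha1 was 3.06-fold higher at 7.05 and 7.25 against 5.51 and 5.56 (limma adjusted p = 0.0001632). For all 3 genes the distance between the fractions exceeded the spread within them, and all 3 passed without any 1 array.

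Epha7 was 2.07-fold higher at 10.46 and 10.47 against 9.21 and 9.62 (limma adjusted p = 0.003734, with 0.1159 when high A was left out and 0.1078 when high B was). Ephb6, whose product lacks kinase activity, was 1.82-fold higher at 6.26 and 6.51 against 5.29 and 5.75 (limma adjusted p = 0.01481). It passed without negative D (limma adjusted p = 0.04215) but not without negative B (0.1429), high A (0.143) or high B (0.1966). Ephb4, a receptor of Efnb2 known from veins, was 1.41-fold higher at 9.13 and 9.31 against 8.64 and 8.82 (limma adjusted p = 0.04525, 0.137 to 0.278 with 1 array left out and 0.05746 after cyclic loess). The endothelial list was lower in GFP-high cells, and its part in the Ephb4 result was not tested. Epha3 was the lower receptor gene, 3.24-fold, at 3.99 and 3.85 within background against 5.57 and 5.66 (limma adjusted p = 0.0001181). Epha2 (log2 difference -0.29), Ephb1 (-0.09, turning to 0.01 under quantile normalization) and 4 genes within background in both fractions, Epha5 (0.08), Epha6 (0.06), Epha8 (0.10) and Epha10 (0.09), did not pass.

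Of the 5 genes of GPI-anchored A ephrins, 2 were higher and 0 lower, and of the 3 genes of transmembrane B ephrins, 2 were lower and 0 higher. Efna5 was 2.08-fold higher at 9.34 and 9.43 against 8.37 and 8.29 (log2 difference 1.05, SE 0.122, limma adjusted p = 0.0009413). Efna4 was 1.39-fold higher, at 8.91 on both GFP-high arrays against 8.53 and 8.34 (limma adjusted p = 0.04273, with 0.115 to 0.247 when 1 array was left out and 0.0558 after cyclic loess). Efnb1 was 2.77-fold lower at 8.11 and 8.24 against 9.71 and 9.58 (log2 difference -1.47, SE 0.128, limma adjusted p = 0.0002412). Efnb2 was 2.81-fold lower at 7.09 and 7.11 against 8.84 and 8.34 (log2 difference -1.49, SE 0.176, limma adjusted p = 0.001037). Efnb2 missed the threshold without high A (log2 difference -1.48) or high B (-1.50). Like the podocyte list and several other lower guidance genes named above, Efnb2 was higher on negative B than on negative D. The endothelial list (524 and 731) and the stroma list (8166 and 8737) ran the other way, and the part of these lists was not tested. Efna1 (log2 difference 0.39, limma adjusted p = 0.1043), Efna2 (-0.28), Efna3 (0.31) and Efnb3 (0.04) did not pass.

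The 32 ligand and receptor pairs that are widely known to bind were set side by side. The pairs were listed from general knowledge after the values had been seen, share genes with one another and received no test. Both genes were higher in GFP-high cells in 4 pairs, both were lower in 3, they went in opposite directions in 11, and at least 1 gene did not pass in 14. Slit1 with Robo1, Sema4d with Plxnb1, and Efna5 with Epha4 and Epha7 were higher together. Sema7a with Plxnc1, Sema3e with Plxnd1, and Slit3 with Robo2 were lower together. Ntn1 was higher where Unc5c, Unc5a and Dcc were lower, and Efnb1 and Efnb2 were lower where Ephb3 was higher. The limits given above for single genes apply to the pairs too, both values within background and calls lost with 1 array left out.

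**Figure D4:**
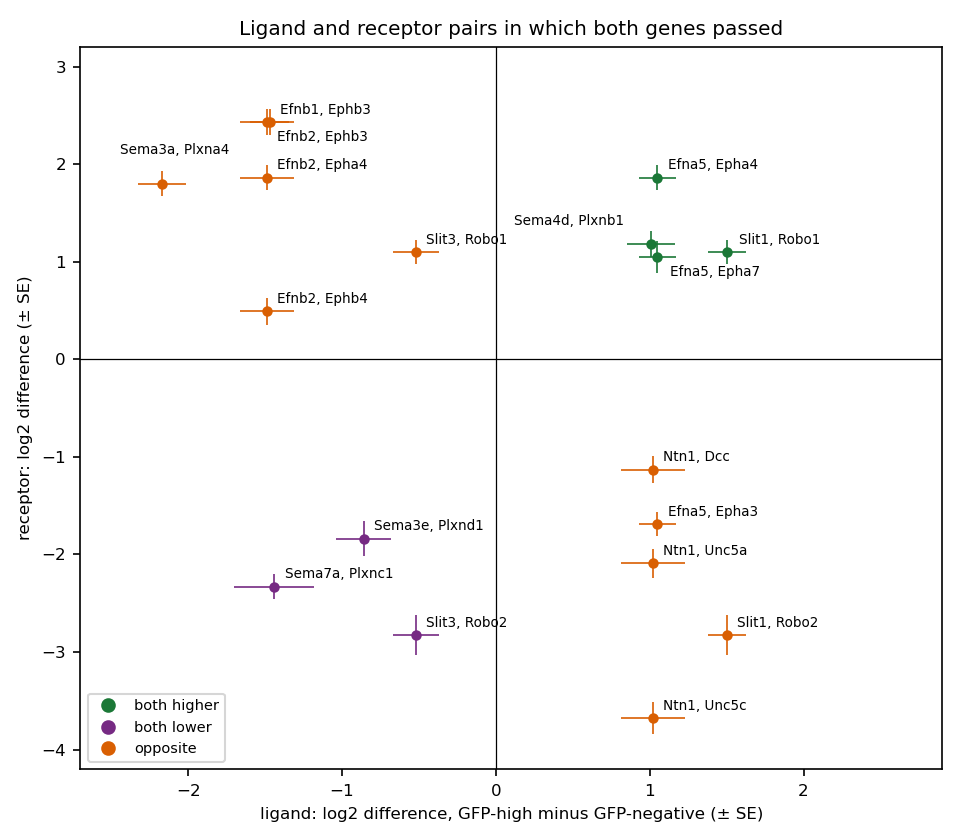
Log2 difference (GFP-high minus GFP-negative) of the ligand gene (horizontal) against that of its receptor gene (vertical), with moderated standard errors, for the 18 ligand and receptor pairs in which both genes passed. In 4 pairs both genes are higher, in 3 both are lower and in 11 they are opposite, among them Ntn1 with Unc5c (1.02 and -3.68) and Efnb1 with Ephb3 (-1.47 and 2.43).

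Of 49 measured effector genes, which act downstream of these receptors, 5 were higher, 11 lower and 33 not passing, so that 32.7% passed, beside 19.2% of all genes and 26.2% of those with a mean above the background mark. Vav3, a guanine nucleotide exchange factor that acts below Eph receptors, stood at 8.31 and 8.68 in GFP-high cells and at 5.18 and 5.31 in GFP-negative cells (9.5-fold, log2 difference 3.25, limma adjusted p = 2.334e-05). Dpysl5, a collapsin response mediator, was 3.01-fold higher at 8.27 and 8.19 against 6.48 and 6.81. The actin-binding Ablim3 (2.44-fold) and Ablim1 (1.76-fold) were higher too. Ablim3 did not pass without negative B (limma adjusted p = 0.07924) or negative D (0.0734). Ablim1 passed without negative B (0.04888) but not without high A (0.06498), high B (0.07465) or negative D (0.06758).

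On the lower side, Mical2, an actin-oxidising enzyme of the family linked to plexins, was 4.33-fold lower at 5.20 and 5.50 against 7.54 and 7.40. Rras, a small GTPase that plexins inactivate, was 2.66-fold lower at 9.18 and 9.13 against 10.59 and 10.54. Dpysl3 was 2.62-fold lower at 6.58 and 6.73 against 8.17 and 7.93. Srgap1, a GTPase-activating partner of roundabouts, was 2.67-fold lower at 7.70 and 8.28 against 9.78 and 9.05. It passed without negative D (limma adjusted p = 0.04203) but not without high B (0.1035), negative B (0.1372) or high A (0.2094). The effectors shared by all pathways, among them Rhoa, Rac1 and Cdc42, had log2 differences of -0.66 to 0.33, and 1 of 9, Limk1, passed as lower.

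Of 20 measured guidance genes of other families 4 were higher, 6 lower and 10 not passing. That is 50% passing, beside 19.2% of all genes and 26.2% of those with a mean above the background mark. Gdnf, the ureteric bud attractant whose domain Slit2 and Robo2 restrict, was 6.68-fold lower at 4.44 and 4.29 against 7.11 and 7.10. The chemokine receptor gene Cxcr4 was 4.07-fold lower at 5.89 and 5.74 against 7.75 and 7.92. Flrt2, an Unc5 ligand, was 3.78-fold lower at 7.20 and 7.33 against 9.17 and 9.20. Lrrc4c was 2.04-fold lower, with limma adjusted p of 0.082 to 0.21 when 1 array was left out. Its GFP-high values of 3.54 and 4.09 were within background. The higher genes were Gfra1 (1.98-fold), Dscam (1.9-fold), L1cam (1.44-fold) and Met (1.39-fold). Dscam stood at 4.55 and 4.38, near background, against 3.43 and 3.64, within background. Gfra1 missed the threshold without high A (limma adjusted p = 0.05351) or high B (0.05767). Dscam passed without negative D (0.03849) but not without high B (0.05982), negative B (0.06689) or high A (0.08622). L1cam and Met passed in none of these fits (0.0927 to 0.143 and 0.135 to 0.245). The cap mesenchyme and stroma lists moved with Gdnf, Robo2 and Unc5c, and their part in these differences was not tested.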

How the data were processed

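Affymetrix arrays measured total RNA of 2 GFP-high and 2 GFP-negative samples. The deposited values are on a log2 scale, found from the values themselves. How the authors corrected background, summarised probes and scaled the arrays was not given in the sources used here. Array medians lay between 5.07 and 5.24. No value column was left unused (0). Arrays have no read depth, so their number limits precision.

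Of 35556 probe sets 21218 named 1 gene by the platform annotation, 1881 several and 12457 were unnamed here. The highest-mean probe set stood for each gene, and 6 guidance genes had a further one. Two-sided differences came from lmFit and eBayes of limma 3.58.1 (R 4.3.3), group as the only term, 2 residual degrees of freedom, with Benjamini-Hochberg adjustment over 18820 genes. SE is the moderated standard error, and fold is 2 to the size of the log2 difference. The fit was run on simulated arrays, with independent normal errors drawn from its own variance model. Such arrays cannot show how the p-values behave if the real arrays are not independent. The genes, effector and marker lists, the background mark and the tests were chosen with earlier results of these data known.

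Named were all guidance genes that passed, the highest and most different that did not per family, partners of passing genes, and the 4 largest passing differences per direction of effectors and of other guidance genes. Further genes that did not pass were named after their values were seen, to account for every gene. The alternatives are given in the closing section.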

Additional observations from a re-analysis of the deposited data

How the results depend on the processing

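The numbers 1 and 2 in the descriptions do not follow the kidney letters, and same-numbered arrays deviated from their group means with a correlation of -0.198 over 18820 genes. With the number as a replicate block 13 guidance genes were higher and 16 lower, and 2959 genes were called in all. Sema6c, Efna4, Ephb4, Slit3 and Robo4 were not called there. With the crossed block (kidney B against kidneys A and D) 18 were higher and 19 lower.

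With 1 array left out the guidance genes numbered 9 to 13 higher and 8 to 14 lower, the effectors 2 to 3 higher and 3 to 7 lower, and all genes called 1123 to 1749. Leaving out genes under the median level removed 11 of the 34 guidance genes that passed before testing, which gave 8 lower guidance genes and 2385 genes in all. Effectors numbered 8 higher with median centring. In no setting did a guidance gene that passed change its sign. With 1 array left out this was fixed in advance, because the fractions did not overlap for any of these genes. The block fits and the fit with an intensity trend keep the log2 difference of the main fit, so they could not turn a sign either. Among the guidance genes that did not pass, Ephb1 (0.01) and Ntn4 (0.09) turned under quantile normalization. Ephb1 (0.00), Ntn4 (0.08), Ntn5 (0.09), Plxna1 (0.01) and Robo3 (0.04) turned under median centring, and Unc5d (-0.03) and Sema3b (-0.02) after cyclic loess. With 1 array left out Ntn4 ranged from -0.15 to 0.11, Sema3c from -0.06 to 0.17, Unc5b from -0.27 to 0.05, Unc5d from -0.13 to 0.17, Robo3 from -0.13 to 0.02, Sema3b from -0.03 to 0.10, Efnb3 from -0.02 to 0.09, Efna2 from -0.56 to 0.00, Ntn5 from -0.11 to 0.10, Plxnb3 from -0.05 to 0.18, Epha5 from -0.07 to 0.23, Epha6 from -0.02 to 0.14 and Epha10 from -0.13 to 0.30. Cause was not tested for these. Values near the background mark of 4.23 limit the size of a difference that can be measured.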
